A study of Mus musculus with 24 samples.

Results

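The sites described here are protein-protected sites (PPSs) of 20 to 40 nt, inclusive, in MEL cells, a mouse erythroleukemia line held at the proerythroblast stage that starts terminal erythroid differentiation when DMSO is added. They were selected on length alone, as the end minus the start coordinate of each deposited PPS, and so length itself is a description here and is not tested. Of 460777 PPSs in the 3 lists, 104345 were of this length, 347825 were longer and 8607 were shorter. PPSs come from PIP-seq (protein interaction profile sequencing), in which formaldehyde-crosslinked lysate is digested with a nuclease while proteins still cover the RNA, and the surviving RNA is compared with RNA digested after the proteins were removed.

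The 24 libraries came from cells grown without DMSO (day 0) and with DMSO for 2 or 4 d, with 2 replicate cultures per day and 6 in all. All cells were of the same line and carried no other label of genotype or treatment than the DMSO and the crosslinking, which every group received. Each culture was divided over 2 nucleases, ssRNase (RNase ONE, which cuts single-stranded RNA) and dsRNase (RNase V1, which cuts paired RNA), with proteins present or removed. The 12 libraries digested with proteins present each gave a set of calls, named here by day, nuclease and replicate, and the authors merged the 4 call sets of a day into 1 list.

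A ribosome that translates an mRNA shields a stretch of about the length of the class studied here, and the ends of such footprints usually fall at a fixed position relative to the codon that is being read, because ribosomes move by whole codons. Ribosome footprints lie in coding sequence (CDS) of mature mRNA and are rare in introns and past the stop codon. In erythroid cells translation is largely devoted to globin chains as maturation proceeds, and ribosomal protein and elongation factor mRNAs are among the mRNAs that cells translate most. PIP-seq does not tell a ribosome from an RNA-binding protein, so that the position, the codon phase and the genes of these PPSs are the measurements that describe them.

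To show what the sites look like, the highest-scoring PPS of 20 to 30 nt from a single call and wholly inside a coding exon was read from the mm10 genome for each day and nuclease. Each sequence is written 5′ to 3′ in the direction of the mRNA, with the first base of each codon in capitals, so that a footprint in frame would start with a capital.
Paics, day 0 ssRNase: aaAacTttGagTggGttGcaGacCgaGtg
Slc38a2, day 0 dsRNase: gaTacTtgGggTacAccAgcGgcCtcTc
Abcb6, day 2 ssRNase: GtgAagGatGttCctGgtGcaGggCccCtt
Xpo1, day 2 dsRNase: GatCttTtaGgaTtaTgtGagCagAa
Srsf5, day 4 ssRNase: gTcaAgaAgcAggTcaCgaTctCggAccA
Cdc37, day 4 dsRNase: aaAaaTatGagAaaCagAtcAagCatTtcG

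The Paics site (an enzyme of purine synthesis) lay at chr5:76962479-76962507 on the plus strand, with a score of 17.35, and overlapped no PPS of another day. The Slc38a2 site (a neutral amino acid transporter) lay at chr15:96693312-96693339 on the minus strand, with a score of 21.46, and overlapped PPSs of 59 nt at day 2 and 49 nt at day 4. The Abcb6 site (a porphyrin transporter) lay at chr1:75174195-75174224 on the minus strand, with a score of 18.4, and overlapped a PPS of 27 nt at day 4. The Abcb6 exon is shared with the predicted gene Gm29253. These 3 sites began at codon positions 2, 2 and 1.

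The Xpo1 site (the main nuclear export receptor) lay at chr11:23284812-23284837 on the plus strand, with a score of 17.35, and overlapped PPSs of 116 nt at day 0 and 47 nt at day 4. The Srsf5 site (a splicing factor) lay at chr12:80949720-80949748 on the plus strand, with a score of 15.43, and overlapped PPSs of 192 nt at day 0 and 123 nt at day 2. The Cdc37 site (a co-chaperone of Hsp90) lay at chr9:21142422-21142451 on the minus strand, with a score of 21.31, and overlapped a PPS of 69 nt at day 0. They began at codon positions 1, 3 and 2, so that 2 of the 6 sequences started in frame. The score is the authors' enrichment value, which has no unit, and it served here only to rank sites.

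Day 0 gave 23782 of these sites out of 138689 PPSs, day 2 gave 50088 of 169575, and day 4 gave 30475 of 152513. Most came from 1 call, with 94.9%, 93.8% and 94.7% at the 3 days. Calls of both replicates were merged in 4.10%, 5.05% and 4.41% of them, against 31.4%, 31.6% and 36.6% of longer PPSs. Merging overlapping calls lengthens a site, so that these shares are tied to the rule. The lists do not tell how deeply each library was sequenced, and the intervals given below cover counting error only. A pair of call sets stood apart from the rest by score. The lists' lowest score of 5.4 was held by 36.8% to 60.6% of the 20 to 40 nt single-call PPSs in 10 call sets, and by 0% at day 2 in ssRNase replicate 1 and dsRNase replicate 2. In addition, 68.0% of the sites of day 0 ssRNase replicate 2 lay on the plus strand, against 45.4% to 54.6% in the other call sets.

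The number of PPSs rose with length across the class and showed no peak near the size of a ribosome footprint in any list. At day 0 there were 301 PPSs of 19 nt and 302 of 20 nt, then 2055 of 40 nt and 2108 of 41 nt. At day 2 the counts at 19, 20, 40 and 41 nt were 435, 490, 3470 and 3323, and at day 4 they were 385, 413, 2530 and 2569. From each length to the next between 20 and 40 nt, the count rose in 19 of 20 steps at day 0, in 17 at day 2 and in 18 at day 4. The most frequent length of every list was 50 nt. Within the class the median length was 34, 33 and 34 nt, and PPSs of 28 to 32 nt made up 23.2%, 27.3% and 23.8% of it.

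Single-call PPSs gave the lengths of each call set without the effect of merging. At day 0, the class held 17.5% and 17.4% of the ssRNase PPSs (replicates 1 and 2) and 32.1% and 33.7% of the dsRNase PPSs. At day 2 it held 49.2% and 25.5% with ssRNase and 40.6% and 51.9% with dsRNase. At day 4 it held 23.5% and 19.8% with ssRNase and 30.1% and 38.6% with dsRNase. The replicates lay close together at day 0 and far apart at day 2 with ssRNase, where the larger share belonged to a call set without scores at the floor. A running mean over 5 nt was highest at 52 nt in 7 call sets. In the other 5 it was highest within or just past the class, at 34 nt in ssRNase replicate 1 and dsRNase replicate 2 of day 2, at 37 nt in dsRNase replicate 1 of day 2 and replicate 2 of day 4, and at 41 nt in dsRNase replicate 2 of day 0.

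**Figure D1:**
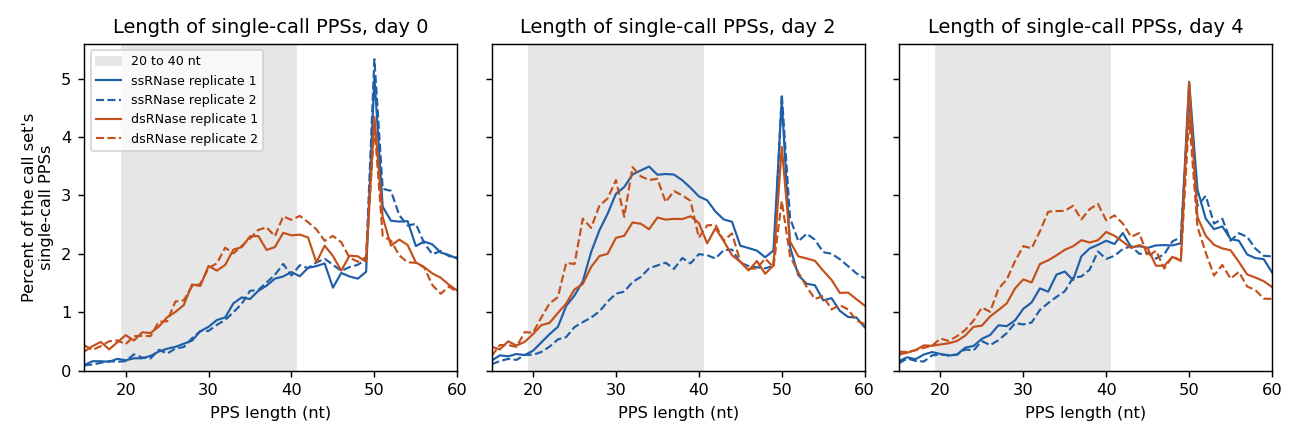
Length of single-call PPSs at each day, as the percentage of the call set's single-call PPSs at each length in nt, with 1 line per call set (blue, ssRNase; orange, dsRNase; solid, replicate 1; dashed, replicate 2) and the class of 20 to 40 nt shaded. The curves rise through the lower part of the shaded class without a narrow peak near 30 nt, and 11 of the 12 are highest at 50 nt, the read length.

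The class was next placed on transcripts, to ask whether these sites lie where ribosomes translate. A PPS was assigned by its midpoint, and it can fall in several classes where transcripts of a gene differ. Over whole lists, 47.6% of the sites lay in CDS at day 0, with a Wilson 95% interval from 47.0 to 48.2. The CDS share was 34.3% at day 2 (33.9 to 34.8) and 35.7% at day 4 (35.1 to 36.2). Introns held 36.1%, 49.4% and 47.6%, and 3′ UTRs held 26.2%, 21.02% and 22.1%. Only 3.54%, 2.82% and 2.88% lay in 5′ UTRs, and 3.88%, 5.39% and 5.39% lay in no annotated gene on their strand. At each of the 3 days CDS held fewer than 50% of the ribosome-sized sites.

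Shares in CDS depended on the nuclease in opposite ways at different days. At day 0, 40.2% and 41.1% of the ssRNase sites lay in CDS, and 53.7% and 51.8% of the dsRNase sites. At day 2 the shares were 25.5% and 31.5% with ssRNase, and 45.7% and 52.2% with dsRNase. At day 4 they were 40.1% and 40.8% with ssRNase, and 31.3% and 34.2% with dsRNase. The ssRNase sites were thus below the dsRNase sites in the 4 cultures of day 0 and day 2, and above them in the 2 cultures of day 4. Over the 6 cultures the difference (ssRNase minus dsRNase) was -8.30 ± 13.01 percentage points (SD, n = 6; exact sign-flip permutation test, two-sided, p = 0.188, adjusted p = 0.188 over 5 measures).

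Introns followed the reverse order. They held 46.0% and 46.7% of ssRNase sites at day 0, 60.6% and 52.4% at day 2 and 47.6% and 45.9% at day 4. With dsRNase they held 26.6% and 29.4%, then 34.1% and 28.99%, then 49.9% and 47.7%. The dsRNase sites of day 4 were the only ones of that nuclease with more than 34.1% in introns. The difference over the cultures was 13.8 ± 12.6 points (exact sign-flip permutation test, n = 6, p = 0.125, adjusted p = 0.156).

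The 3′ UTR is where many RNA-binding proteins that control mRNA stability and translation bind. It held 20.6% and 19.04% of ssRNase sites at day 0, 15.9% and 19.8% at day 2 and 17.3% and 19.3% at day 4. With dsRNase it held 34.1% and 29.9%, then 28.96% and 31.0%, then 22.8% and 24.8%. No dsRNase call set overlapped any ssRNase call set. The same held for PPSs over 40 nt, with 10.5% to 13.5% in ssRNase call sets and 22.1% to 34.2% in dsRNase call sets. The contrast was thus not particular to the class. In the class, the dsRNase share was higher in 6 of 6 cultures, with a difference of -9.93 ± 3.60 points (ssRNase minus dsRNase) and the smallest p that 6 cultures allow (exact sign-flip permutation test, p = 0.0312), but the difference did not pass the adjustment over 5 measures (adjusted p = 0.156). With the cultures' pairing left out, an unpaired exact permutation test gave an adjusted p of 0.0108 for the same difference of -9.93 points. That test ignores the lysate shared by the nucleases of a culture and can reach smaller p values than the paired test. It does not replace the paired result, which did not pass.

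**Figure D2:**
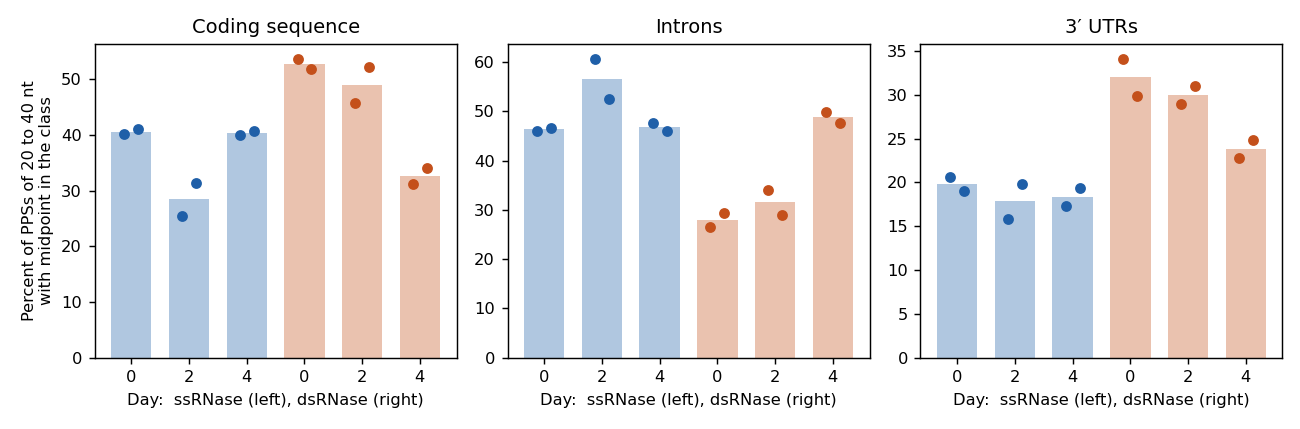
Percentage of single-call PPSs of 20 to 40 nt with their midpoint in coding sequence, introns and 3′ UTRs, by day and nuclease (blue, ssRNase; orange, dsRNase). Points are the 2 replicates and bars their mean. Coding shares of dsRNase sites fall from 53.7% and 51.8% at day 0 to 31.3% and 34.2% at day 4, while those of ssRNase sites at day 4 lie at 40.1% and 40.8%.

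Between days, values are given as the mean of both nucleases in each culture. With 2 cultures against 2 no permutation test can reach a p below 0.333, so that the range over the 4 pairs of cultures is given in place of a test. The CDS share changed by -7.97 points from day 0 to day 2 (range over pairs -11.3 to -4.59) and by -10.1 points from day 0 to day 4 (-11.3 to -8.95). The intron share changed by 6.86 points at day 2 (2.65 to 11.1) and by 10.6 points at day 4 (8.73 to 12.4). The 3′ UTR share changed by -2.01 points at day 2 (-4.94 to 0.933) and by -4.85 points at day 4 (-7.31 to -2.39).

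The change at day 4 lay in the dsRNase sites. Among them the CDS share changed by -20.01 points from day 0 (range over pairs -22.4 to -17.6) and the intron share by 20.8 points (18.2 to 23.3). Among ssRNase sites the same changes were -0.198 points (-0.977 to 0.581) and 0.415 points (-0.784 to 1.61). The dsRNase PPSs over 40 nt moved likewise. Their CDS share was 46.3% and 45.8% at day 0 and 26.5% and 30.1% at day 4. Their intron share was 30.9% and 34.3%, then 54.5% and 50.5%. The dsRNase change was thus not particular to the class. With ssRNase, the CDS share of PPSs over 40 nt was higher at day 4, at 30.6% and 24.97% against 21.5% and 22.1%. At day 2 the larger CDS change was in the ssRNase sites, at -12.2 points (-15.6 to -8.74), against -3.77 points (-7.95 to 0.415) in the dsRNase sites. At day 2, 1 call set of each nuclease held no score at the floor, and its part in these values was not tested.

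Compared with longer PPSs, the 20 to 40 nt PPSs lay more often in CDS and 3′ UTRs in the means of each culture. The CDS share was 40.7% ± 5.19 in the class and 32.02% ± 3.62 above 40 nt (SD over 6 cultures, mean of both nucleases). It was higher in the class in 6 of 6 cultures, by 8.65 ± 3.75 points, from 4.45 points in replicate 1 of day 2 to 13.1 points in replicate 1 of day 0 (exact sign-flip permutation test, p = 0.0312, adjusted p = 0.0375 over 6 measures). The intron share was lower in 6 of 6 cultures, with a difference of -9.72 ± 2.95 points, from 43.0% ± 5.31 in the class and 52.7% ± 3.89 above it. The 3′ UTR share was higher in 6 of 6, by 3.65 ± 0.775 points, with 23.6% against 19.97%. Both had the same exact permutation p of 0.0312 and adjusted p of 0.0375. G+C content was 0.633 ± 0.686 points higher in the class, in 4 of 6 cultures (exact permutation p = 0.125, adjusted p = 0.125). The size of these differences depended on the nuclease. With ssRNase the class minus longer PPSs came to 13.04 points in CDS, -15.8 in introns and 6.86 in 3′ UTRs (means of 6 call sets), with the same direction in 6 of 6. With dsRNase the same means were 4.25, -3.64 and 0.451 points. Among the 6 dsRNase call sets the CDS share was higher in the class in 5 and the 3′ UTR share in 3, and replicate 2 of day 2 had less CDS (52.2% against 54.01%) and more intron (28.99% against 27.97%) in the class. These nuclease contrasts were not tested. With both day 2 cultures left out the CDS, intron and 3′ UTR differences were 10.7, -11.2 and 3.60 points, and 4 cultures cannot give a p below 0.125.

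The excess in CDS was graded by length within the class itself. Among PPSs of 20 to 24 nt, 44.0% to 67.7% lay in CDS over the 12 call sets, and among those of 35 to 40 nt, 21.7% to 49.4%. The shorter sites had the higher share in 12 of 12 call sets, by 15.2 to 33.3 points (mean 23.4). In day 0 ssRNase replicate 1 the share was 64.6% at 20 to 24 nt, 53.9% at 25 to 29 nt, 39.8% at 30 to 34 nt and 33.4% at 35 to 40 nt. In day 4 dsRNase replicate 1 the same steps were 45.1%, 40.2%, 28.8% and 26.5%. Intron shares ran the other way in 12 of 12 call sets, with 18.5% to 40.7% at 20 to 24 nt and 29.6% to 65.5% at 35 to 40 nt. G+C content moved with length too, by 1.003 to 3.24 points in 12 of 12 call sets, with 48.9% ± 1.51 at 20 to 24 nt and 46.5% ± 1.47 at 35 to 40 nt (SD, 12 call sets). Its part in the CDS shares was not tested.

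**Figure D3:**
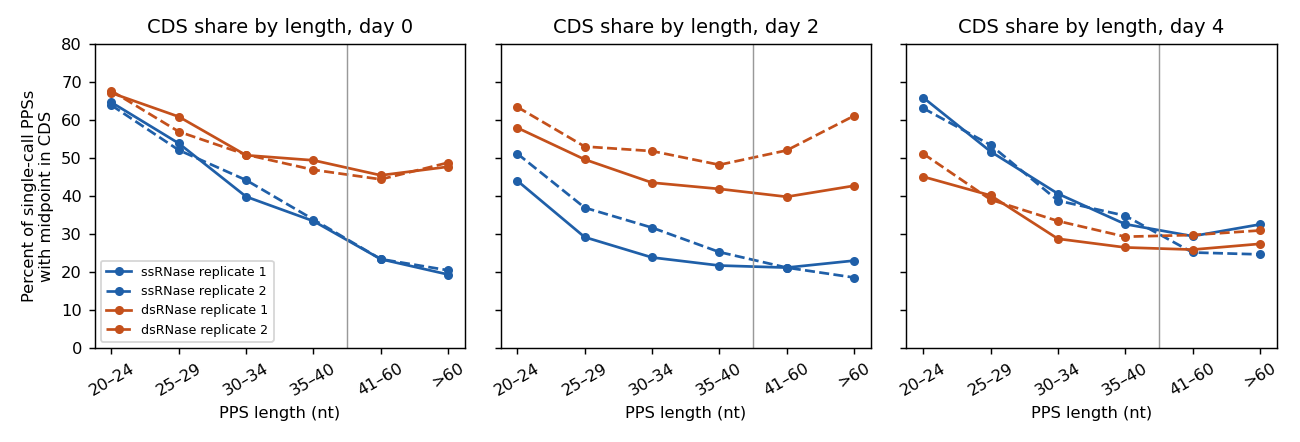
Percentage of single-call PPSs with their midpoint in coding sequence by length (nt), for each call set (blue, ssRNase; orange, dsRNase; solid, replicate 1; dashed, replicate 2), at the 3 days. The vertical line separates PPSs of 20 to 40 nt from longer ones. Every curve falls from 20 to 24 nt to 35 to 40 nt, for example from 64.6% to 33.4% in day 0 ssRNase replicate 1.

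Codon phase was examined in the 36998 PPSs of 20 to 40 nt that lay wholly inside 1 coding exon of the transcript with the longest CDS of its gene. Their 5′ ends fell at codon position 1 in 35.1% of cases (Wilson 95% interval 34.6 to 35.6), at position 2 in 32.7% and at position 3 in 32.3%, near the 33.3% of an even split over codon positions. Over the 12 call sets position 1 held from 34.1% (dsRNase replicates 2 of day 2 and 1 of day 0) to 35.8% (ssRNase replicate 1 of day 4). By day it held 35.1%, 34.8% and 35.5%. The ends of a PPS are those of a called region and not of single reads, which can blur a phase that reads would show.

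By single length, position 1 held between 32.8% (23 nt) and 40.3% (21 nt) of 5′ ends, and lengths of 28 to 32 nt gave 34.4% (33.5 to 35.4). PPSs whose length was a multiple of 3 nt had 36.7% at position 1 (35.8 to 37.5), and those that were 1 or 2 nt longer had 34.7% and 33.9%. At day 4, PPSs of 25 to 27 nt had 39.98% at position 1 (37.2 to 42.8), against 37.0% at day 0 and 33.5% at day 2 for the same lengths. This was the highest value among the groups of day and length, picked after seeing them. PPSs of 28 to 32 nt at day 4 had 33.7%. PPSs over 40 nt had 34.5% at position 1 (34.2 to 34.8). In the 6 cultures the class exceeded longer PPSs by 0.933 ± 0.250 points, in 6 of 6 (exact sign-flip permutation test, p = 0.0312, adjusted p = 0.0375). By nuclease it averaged 1.66 points with ssRNase (higher in 6 of 6 call sets) and 0.205 points with dsRNase (4 of 6). That difference did not pass at 25 to 35 nt (0.494 points, exact permutation p = 0.156) or with the 3′ end in place of the 5′ end (0.322 points, exact permutation p = 0.594). The nucleases differed by 0.575 ± 0.703 points (exact sign-flip permutation test over 6 cultures, p = 0.0938, adjusted p = 0.156).

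**Figure D4:**
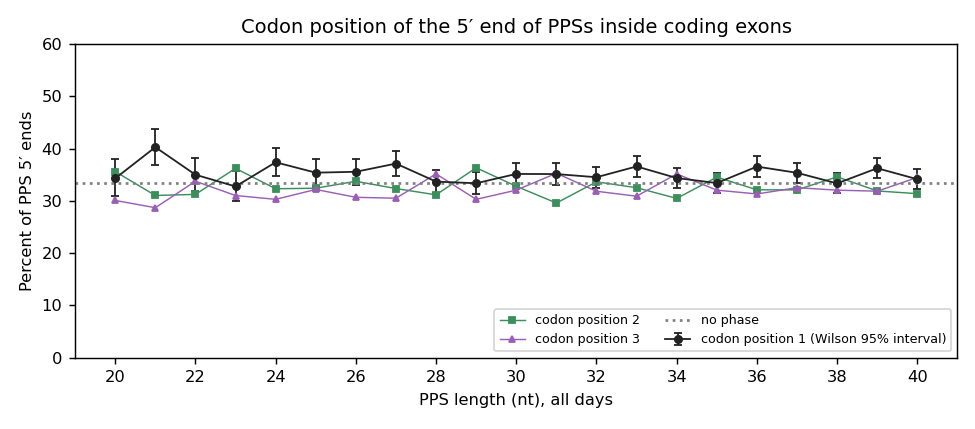
Codon position of the 5′ end of PPSs inside coding exons, as the percentage of PPSs at each length from 20 to 40 nt over all days. Bars on position 1 are Wilson 95% intervals, and the dotted line marks 33.3%, an even split over codon positions. Position 1 stays between 32.8% and 40.3%, and lengths of 28 to 32 nt do not stand out.

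Base content at the ends differs from that inside the sites, and codon positions differ in base content, so both were read together. Among the PPSs with a codon phase, G made up 28.5% of the bases inside the sites, 17.7% of the first bases and 18.7% of the last bases. Of the G bases inside these sites 41.3% were at codon position 1, against 23.3% of the T bases. Weighting the codon positions of each base inside the sites by the first-base shares gave 32.1% at position 1, beside the 35.1% found. This weighting pools both nucleases and uses no base outside the site. The part of base content in the codon phase was not tested. Among all single-call sites of 20 to 40 nt, the first base was A in 36.5% ± 1.02 with ssRNase and 28.4% ± 0.733 with dsRNase (SD, 6 call sets each), and the ranges over call sets did not overlap. The last base was C in 29.96% ± 1.91 and 34.001% ± 2.11, respectively. Over whole sites, G+C content was 48.3% ± 0.820 with ssRNase and 45.9% ± 0.907 with dsRNase, higher with ssRNase in 5 of 6 cultures by a mean of 2.41 points (exact sign-flip permutation test, p = 0.0625, adjusted p = 0.156).

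Along the CDS, each 20% of the length held a similar share of the sites in the mean of all call sets. The first 20% of the CDS length held 20.5% ± 1.45 of them and the last 20% held 18.9% ± 1.29 (SD, 12 call sets), against 21.8% ± 1.91 and 18.8% ± 1.56 of longer PPSs. The nucleases did not overlap here, with 21.2% to 22.3% of ssRNase sites and 17.7% to 19.97% of dsRNase sites in the first 20%, and 17.1% to 18.6% against 19.1% to 21.2% in the last 20%, a difference that was not tested. The first 50 nt of the CDS held 3.07% ± 0.534 and the last 50 nt 2.86% ± 0.622. In 3′ UTRs the median site lay 699 ± 62.9 nt from the stop codon, and 11.5% ± 1.34 of sites lay in the first 100 nt, beside 11.5% ± 1.49 of longer PPSs. Of the few sites in 5′ UTRs, 35.9% ± 7.64 lay in the 50 nt before the start codon, against 30.9% ± 4.35 for longer PPSs. In bins of 20 nt, the 20 nt from the start codon on held 0.995%, 1.02% and 0.845% of the sites placed on these transcripts at the 3 days, and the next 20 nt held 0.756%, 0.737% and 0.787%. The 20 nt after the stop codon held 0.756%, 0.733% and 0.878%, and the following 20 nt held 0.556%, 0.623% and 0.555%.

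Sites of 20 to 40 nt were then compared with the longer PPSs of the other days, which asks whether they are shorter calls of sites seen elsewhere. At day 0, 46.9% of them overlapped a PPS over 40 nt of day 2 or day 4 by at least 1 nt (Wilson 95% interval 46.2 to 47.5), and 20.9% overlapped another PPS of 20 to 40 nt. At day 2 these shares were 46.5% and 13.4%, and at day 4 they were 41.2% and 17.9%. Neither kind was found for 39.6%, 44.7% and 46.5%. By midpoint, 42.6%, 43.2% and 37.5% of the class lay in a PPS over 40 nt of another day, beside 56.3%, 58.6% and 56.01% of all longer PPSs. By pairs of days, the share that overlapped a longer PPS was lowest for day 4 sites against day 2, at 25.7%, and highest for day 0 sites against day 4, at 32.9%.

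The longer partners had median lengths from 60 nt (day 4 sites in day 2 PPSs) to 69 nt (day 0 sites in day 4 PPSs). Of the sites with their midpoint in such a partner, 59.5% to 70.7% lay wholly inside it. Their midpoints fell in the middle 33.3% of the partner's length in 37.7% to 40.9% of cases. A 5′ end within 5 nt of that of the partner was found in 24.5% to 28.5%, and a 3′ end in 26.2% to 29.6%. CDS sites overlapped longer PPSs of another day in 49.2%, 52.2% and 47.7% of cases at the 3 days, and intron sites in 44.4%, 42.8% and 38.2%. Day 4 sites in 3′ UTRs stood at 39.8%, against 47.1% and 50.6% at day 0 and day 2.

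Longer PPSs had longer counterparts more often than the class did. By midpoint, 42.4% ± 2.53 of the class and 49.4% ± 3.31 of longer PPSs lay in a PPS over 40 nt of another day (SD, 6 cultures). The class was lower in 6 of 6 cultures, with a difference of -6.97 ± 1.52 points (exact sign-flip permutation test, p = 0.0312, adjusted p = 0.0375). This measure counts only counterparts over 40 nt, so a longer PPS found again at its own length counts and a site of the class does not. Length is thus part of the measure, and the test cannot tell it from a difference in recurrence. Both cultures of a day were also scored against the same merged lists, so the 6 differences are not independent. With every PPS that held a call of the call set, merged ones included, the difference was -19.8 points, and with both day 2 cultures left out -6.14 points. The class share in single call sets was 45.4% and 44.3% with ssRNase and 40.9% and 39.5% with dsRNase at day 0. At day 2 it was 38.9% and 41.8% with ssRNase and 45.6% and 52.2% with dsRNase. At day 4 it was 48.2% and 48.5% with ssRNase and 32.02% and 31.8% with dsRNase, so that the nucleases stood in opposite orders at days 2 and 4. Over both nucleases the change from day 0 was 2.10 points at day 2 (range over pairs -0.897 to 5.09) and -2.38 points at day 4 (-3.01 to -1.76). Each day was scored against the lists of the other days, so the reference also changed with the day, and its part was not tested.

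**Figure D5:**
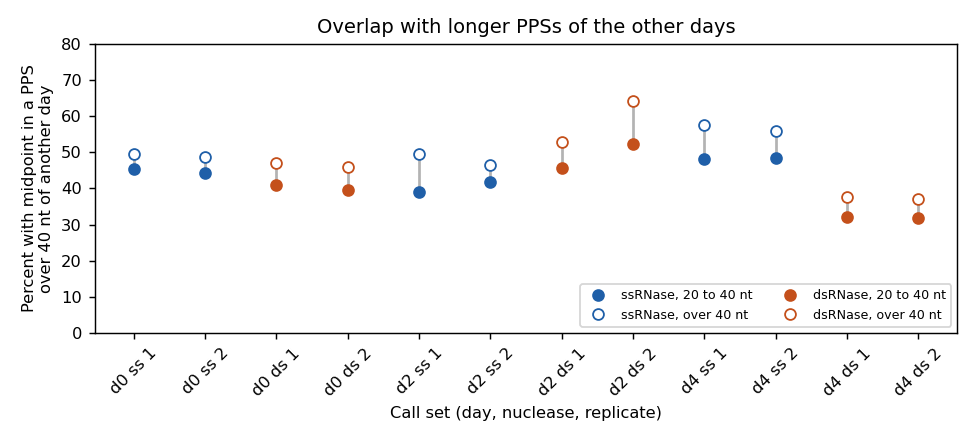
Percentage of single-call PPSs with their midpoint in a PPS over 40 nt of another day, for each call set (day, nuclease and replicate), with PPSs of 20 to 40 nt as filled points and PPSs over 40 nt as open points (blue, ssRNase; orange, dsRNase). The class runs from 31.8% to 52.2%, and each of its points lies below the open point of the same call set, 12 of 12.

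Loci where PPSs of 20 to 40 nt of all 3 days overlapped on a strand numbered 470, and 236 of them lay in CDS (50.2%) and 152 in introns (32.3%). Over all sites of the class, CDS held 47.6%, 34.3% and 35.7% at the 3 days and introns 36.1%, 49.4% and 47.6%. With the loci ranked by the lowest of their 3 scores, the first lay in an exon of the predicted gene Gm13340 (chr2:22588315-22588351, minus strand), with scores of 23.74, 21.36 and 25.37 at days 0, 2 and 4 and lengths of 36, 36 and 34 nt. The second lay in the CDS of Bst2 (tetherin, a membrane protein that holds back budding viruses), at chr8:71535786-71535825 on the minus strand, with scores of 14.22, 12.38 and 29.82. The third lay in the 5′ UTR of Jmjd6 (a hydroxylase), with scores of 15.35, 31.74 and 12.22. The fourth lay outside annotated genes at chr8:20010932-20010964 on the plus strand, and the fifth in the 3′ UTR of Nop53 (a ribosome biogenesis factor), with scores of 14.88, 14.32 and 11.43. Reads could align to several genomic positions, so sites in repeated sequence can hold reads of other copies.

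The highest-scoring sites of each list were a mix of coding and intronic sites. At day 0 they lay in the CDS of Rassf1 (a tumour suppressor; score 29.01, 35 nt, calls of all 4 call sets), in an intron of Dock2 (28.07, 39 nt, 1 call) and in the CDS of Ddx6 (an RNA helicase of mRNA decay; 27.7, 36 nt). At day 2 all 3 lay in introns, of Rpl17 (63.75, 33 nt), Ints6 (61, 38 nt) and Mkln1 (51.58, 36 nt). At day 4 all 3 lay in CDS, of Nomo1 (35.34, 36 nt), Herc1 (34.7, 30 nt) and 4932438A13Rik (32.43, 39 nt). Scores of merged calls appear to be sums, with a lowest score of 10.8 among merged PPSs, and all of these sites but that of Dock2 were merged.

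The class was spread over many genes. Of 9810 protein-coding genes with an exonic PPS, 88.8% held an exonic PPS of 20 to 40 nt at some day, with 70.7% at day 0, 81.8% at day 2 and 73.0% at day 4 among genes with an exonic PPS of 20 nt or longer at that day. The median over the 8707 genes that held one was 5 sites, 2211 genes held 10 or more, and 1263 held 1. At all 3 days 4319 genes held one. In the same genes, sites of 20 to 40 nt made up 22.6%, 34.2% and 22.5% of the exonic PPSs of 20 nt or longer at days 0, 2 and 4, the measure used for the gene lists below. Bulk data of this kind cannot tell more bound molecules per transcript from more transcripts, since the lists carry no transcript level.

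The genes with the most sites were all genes of long exonic sequence. Kmt2d, a histone methyltransferase, held 86 sites (18, 43 and 25 at days 0, 2 and 4), of which 76 lay in CDS. Ahnak, a giant scaffold protein, held 69 (19, 27 and 23), and Herc1, a ubiquitin ligase, held 69 (14, 30 and 25). Macf1, a linker of actin and microtubules, held 67, and Birc6, an inhibitor of apoptosis, held 63. Kmt2c, another histone methyltransferase, held 62.

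The ubiquitin ligase Herc2, the aminopeptidase Lnpep and the deubiquitinases Usp34 and Usp9x held 52 sites each. In Lnpep 36 of the 52 lay in the 3′ UTR and 15 in CDS, while in Usp34 all 52 lay in CDS. The exonic length of these 10 genes ran from 14144 nt in Lnpep to 31402 nt in Macf1. In Kmt2d 54 sites held ssRNase calls and 36 held dsRNase calls, and in Usp34 14 and 41 did.

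Cytosolic ribosomal proteins, whose mRNAs are heavily translated, were annotated as 86 genes, of which 71 held an exonic PPS and 69 of these held one of 20 to 40 nt (97.2%, beside 88.8% over all genes). They held 303 sites in all, with 96, 117 and 90 at days 0, 2 and 4. These sites made up 21.6%, 30.6% and 21.5% of the list's PPSs of 20 nt or longer, beside 22.6%, 34.2% and 22.5% over all genes. Rpl3 held 17 sites (10 in CDS), Rps24 16 (1 in CDS) and Rpl6 14 (7 in CDS). Rpl3 and Rpl6 share exonic positions with other genes, and ribosomal protein genes have many processed copies, so that their counts are uncertain.

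Translation initiation and elongation factors gave 55 genes with such a site of 56 with an exonic PPS (98.2%, beside 88.8% over all genes). They held 132, 219 and 156 sites at the 3 days, which made up 22.4%, 38.6% and 27.4% of their PPSs of 20 nt or longer, beside 22.6%, 34.2% and 22.5% over all genes. Eif5b, which joins the ribosomal subunits, held 32 sites, 28 of them in CDS. Eif3c, a subunit of the initiation factor that binds the small subunit, held 24, with calls of dsRNase in 23 and of ssRNase in 2. Eif4g3, a scaffold of cap binding, held 21, with calls of ssRNase in 16 and of dsRNase in 5.

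Globins and other erythroid genes are the products of this differentiation. Of the 8 annotated globin genes 4 held an exonic PPS, and all 4 held one of 20 to 40 nt (beside 88.8% over all genes), with 11 sites in all and 6, 2 and 3 at days 0, 2 and 4. Hba-a1 held 2, 1 and 1, Hbb-bs 3, 1 and 0, and Hbb-bt 1, 0 and 1. Longer PPSs of the globins numbered 7, 13 and 14 at the same days, so that sites of 20 to 40 nt were 46.2%, 13.3% and 17.6% of their PPSs of 20 nt or longer, beside 22.6%, 34.2% and 22.5% over all genes. Counts of this size give no order between days.

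Of 30 erythroid genes, 29 held an exonic PPS and all 29 held one of 20 to 40 nt (22, 27 and 27 genes at days 0, 2 and 4), beside 88.8% over all genes. Their sites numbered 93, 139 and 113, beside 294, 385 and 473 longer PPSs, or 24.03%, 26.5% and 19.3% of those of 20 nt or longer, beside 22.6%, 34.2% and 22.5% over all genes. Ank1, the ankyrin of the red cell membrane, held 38 (10, 12 and 16), with 28 in CDS and 26 in 3′ UTRs, since some lie in both by different transcripts. Epb41, protein 4.1 of the same skeleton, held 35 (12, 14 and 9), of which 23 lay in 3′ UTRs. Sptb, erythroid beta spectrin, held 32 (9, 11 and 12), of which 28 lay in CDS.

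Of 67 histone genes 65 held an exonic PPS and 33 of these one of 20 to 40 nt (50.8%, beside 88.8% over all genes). Their sites numbered 13, 16 and 26 at days 0, 2 and 4, and made up 7.88%, 8.84% and 18.6% of their PPSs of 20 nt or longer, beside 22.6%, 34.2% and 22.5% over all genes. Hist1h1c held 5, and Hist1h1a and Hist1h2bh held 3 each. Histone genes are short and have near-identical copies. Of 10 genes of other blood cells, 3 held an exonic PPS and 2 of these one of 20 to 40 nt, too few to set against the 88.8% over all genes. The 2 genes were Itga2b, an integrin subunit of megakaryocytes and platelets, with 18 sites, and Pf4, a platelet chemokine, with 5, while Ptprc, the leukocyte phosphatase CD45, held 3 longer PPSs and none of this length. An exonic PPS of any length was held by 29 of the 30 erythroid genes and 3 of these 10, beside 44.7% of the 21938 annotated protein-coding genes.

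The class also touched small RNA genes. Annotated miRNA genes with such a site numbered 44, none of them at all 3 days. The number of miRNA genes with a PPS of any length is not given here, so this count has no background share beside it. At Mir26a-2, which lies in an intron of Ctdsp2, a site of 28 nt at day 2 (chr10:126995539-126995566, plus strand, score 13.54) and one of 27 nt at day 4 (chr10:126995542-126995568, score 5.57) each covered the whole 22 nt of the mature miRNA. Its sequence in RefSeq (GRCm38) is given below with the seed, bases 2 to 8, in capitals.
miR-26a-5p: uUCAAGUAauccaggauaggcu

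At n-TStga1, which carries the symbol of a nuclear tRNA gene but is annotated as miRNA, sites of 30 nt at day 2 and 31 nt at day 4 shared their 3′ end. At Mir7-1, in an intron of Hnrnpk, a site of 39 nt at day 2 (score 22, 3 calls) overlapped the mature miR-7a-5p by 1 nt, and so lay beside it.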

How the data were processed

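PIP-seq libraries of MEL cells were made in 2 cultures per day. Per the study's methods and the submitters' processing notes, the authors trimmed reads (cutadapt 1.2.1), collapsed them and aligned them to mm10 (TopHat2 2.0.10, reads with several hits kept). They called PPSs with a modified CSAR package, testing libraries digested with proteins present against libraries digested after the proteins were removed. The deposited lists give 1 score per PPS, whose scaling was not given in the sources used here, and name the calls merged into it. The sample titles gave the library behind each name. Scores ranked sites only.

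Classes were taken from GENCODE M21 (GRCm38, which is mm10) on 21 chromosomes, at the midpoint and strand of each PPS. Values per call set used PPSs of 1 call. The nucleases of a culture share their lysate, so cultures were paired across nucleases and lengths by design. Differences were tested with an exact two-sided sign-flip permutation test over 6 cultures (smallest p 0.0312) and Benjamini-Hochberg adjustment over 5 measures (nuclease) or 6 (length), at 0.05. Shares carry Wilson 95% intervals.

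The members, gene lists and alternatives were chosen with earlier results of these data known. Named genes were the 10 with the most exonic sites (without predicted or RIKEN symbols and genes that share exonic positions), the 3 of each list with the most, the 3 highest scores per day, 5 loci found at all days and 3 miRNA genes. The annotation steps were tested on simulated sites. Python 3.11.15, numpy 2.4.6, pandas 2.3.3 and matplotlib 3.10.9 were used.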

Additional observations from a re-analysis of the deposited data

Results flagged for a closer look

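The share of 20 to 40 nt PPSs with their midpoint in a PPS over 40 nt of another day moved in opposite directions with the nucleases. From day 0 to day 2 it changed by -4.49 points with ssRNase (range over the 4 pairs of replicates -6.47 to -2.52) and by 8.69 points with dsRNase (4.68 to 12.7), so that every pair of one nuclease moved down and every pair of the other up. The difference between these changes was -13.2 points. From day 0 to day 4 the change was 3.52 points with ssRNase (2.85 to 4.20) and -8.28 points with dsRNase (-9.08 to -7.48), and the difference was 11.8 points. These differences were not tested. Each day was scored against the merged lists of the other days, so the reference changed with the day and was shared by all pairs. The lists differed by nuclease. PPSs of any length with ssRNase calls numbered 62202 and 56381 at day 0 (replicates 1 and 2). At days 2 and 4 they numbered 73596 and 89671, then 53323 and 52539. With dsRNase calls the 3 days gave 33777 and 40191, 40730 and 20569, and 66586 and 50594. The part of the reference in these moves was not tested. Longer PPSs moved likewise with dsRNase, from 47.1% and 46.1% at day 0 to 52.7% and 64.2% at day 2. At day 4 they stood at 37.6% and 37.2%. With ssRNase, longer PPSs stood at 49.7% and 48.6% at day 0 and at 57.5% and 56.0% at day 4. Their ssRNase values at day 2, 49.7% and 46.4%, overlapped those of day 0. Apart from that fall at day 2, the moves were thus not particular to the class.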

How the results depend on the processing

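Of 146 alternative values, not counting those with 1 culture left out, 142 kept the direction of the reported value. The others were all changes between days in the overlap with longer PPSs. Values with no replicate block could not change direction, since only the test differed there. Leaving out 1 culture at a time moved the CDS, intron, 3′ UTR, codon and overlap differences by length to between 7.76 and 9.49, -10.5 and -9.04, 3.48 and 3.81, 0.879 and 1.01, and -7.32 and -6.57 points. Since 5 cultures cannot give a p below 0.0625, and 4 none below 0.125, losing the call there says nothing about stability. With both day 2 cultures left out, chosen after seeing the data, the same values were 10.7, -11.2, 3.60, 1.08 and -6.14 points. The codon difference was 0.494 points at 25 to 35 nt and 0.322 at 3′ ends, where it lost its call, and 0.379 on the plus strand, 1.53 on the minus strand, 1.64 at scores from the median up and 0.560 with merged PPSs, where it kept it. The overlap difference was -19.8 points with merged PPSs. With no replicate block, the unpaired test called the 3′ UTR (-9.93 points) and G+C (2.41 points) differences between nucleases, which the paired test did not. The unpaired test ignores the lysate shared within a culture, so the paired result is the one to read.

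With scores at or above the call set's median, the changes at day 4 were -13.0 (CDS), 12.3 (intron) and -5.66 points (overlap). On the plus strand the overlap changed by 5.29 points at day 2 and 1.67 at day 4, which reversed the latter, and on the minus strand by -2.26 and -7.46 points. With ssRNase only, chosen after seeing the data, CDS and overlap changed by -12.2 and -4.49 points at day 2, and CDS, intron, 3′ UTR and overlap by -0.198, 0.415, -1.51 and 3.52 points at day 4. With dsRNase only these were -3.77 and 8.69, then -20.01, 20.8, -8.19 and -8.28 points. The cause was not tested. Leaving out 1 culture of either day moved the overlap change at day 2 to between -0.279 and 4.47 points. The study gives a range of raw reads over its libraries but not the depth of each, so the precision of each call set cannot be given beyond counting error.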
